A study of Mus musculus with 32 samples.

Results

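The angiopoietin and Tie receptor system was followed across the cells of the mouse islet through 5 genes, the ligands Angpt1 and Angpt2, the receptors Tek (Tie2) and Tie1, and the receptor phosphatase Ptprb. They were taken by symbol from the 22850 genes of the normalized expression table, and each symbol stood on 1 gene. RNA had been sequenced from β cells, macrophages (MΦs) and endothelial cells (ECs) sorted from dispersed islets in 32 libraries. Every group came from mice on a C57BL/6 background that carried 3 transgenes. MIP-GFP puts GFP under the control of mouse Ins1, RIP-rtTA does the same for a doxycycline-dependent activator with rat Ins2, both for β cells, and TetO-VEGF-A responds to that activator and encodes human VEGF-A. No Dox mice carried the same transgenes and received no doxycycline (Dox), 1wk Dox mice drank Dox for 1 week, and 1wk WD mice had been off Dox again for 1 week (withdrawal, WD). GFP marked the β cells, which were sorted from cells without CD31 and CD11b, with ECs sorted by CD31 and MΦs by CD11b. There were 4 No Dox, 5 1wk Dox and 3 1wk WD libraries of β cells, 4, 1 and 5 of ECs in that order, and 4, 2 and 4 of MΦs. The study had further libraries of 1wk Dox ECs and MΦs, deposited under a separate series and not analysed here. Islets of several mice were pooled for each library, the study calls the libraries of a group biological replicates, and no label ties a replicate number to an animal. The labels give no ages, and by the study's methods the mice were adults.

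Tie2, the product of Tek, is a receptor tyrosine kinase of the vascular endothelium. Angiopoietin-1, usually made by mural and stromal cells, activates it and favours quiet, tightly joined vessels, whereas angiopoietin-2, stored and released by ECs, can block or weakly activate it depending on context. Tie1 has no well-established ligand of its own and modulates Tie2 in complex with it, and Ptprb encodes VE-PTP, a phosphatase that removes phosphate from Tie2. Active Tie2 signals through PI3K and Akt, which keep the transcription factor FOXO1 out of the nucleus, and FOXO1 in turn promotes transcription of Angpt2.

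In mm9 the genes are dispersed apart from the pair of receptors. Angpt1 (ENSMUSG00000022309) lies on chromosome 15 at 42256273 to 42508523 on the minus strand, and Angpt2 (ENSMUSG00000031465) on chromosome 8 at 18690263 to 18741562 on the minus strand. Tek (ENSMUSG00000006386) spans 94405980 to 94541667 on the plus strand of chromosome 4, the chromosome that also holds Tie1 (ENSMUSG00000033191), at 118143796 to 118162666 on the minus strand. Ptprb (ENSMUSG00000020154) lies on chromosome 10 at 115712579 to 115826594 on the plus strand. The scores stand for whole genes, so neither transcripts nor exons of a gene can be told apart. The promoter of Tek is shown because Tek was called higher in ECs than in both other cell types at each time point tested, as Tie1, Ptprb and Angpt2 were, and its window lay outside the annotated transcript. It is taken from RefSeq (GRCm38.p6) and was placed by an exact match in mm9 at chr4:94405730-94405979, plus strand, the 250 bases before the annotated start, outside any exon of Tek. Capitals mark the ETS core GGAA, read on either strand and here on the minus strand, where it appears as TTCC.
Tek promoter: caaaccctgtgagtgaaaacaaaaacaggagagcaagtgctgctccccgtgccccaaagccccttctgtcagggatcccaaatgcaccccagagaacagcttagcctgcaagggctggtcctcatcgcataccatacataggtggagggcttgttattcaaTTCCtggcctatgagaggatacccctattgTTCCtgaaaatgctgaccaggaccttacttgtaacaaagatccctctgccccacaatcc
It held 2 matches. The same motif stood in 93.4% of 32851 mouse promoters in a window of this length, with a median of 3 matches, and 76.8% had at least as many as Tek. The Tie1 window, which is not printed because most of it lies inside the annotated transcript, held 7 matches, a number reached by 3.82% of promoters. Neither the forkhead sequence GTAAACA, found in 3.17% of promoters on either strand, nor the GATA sequence AGATAA, found in 9.99%, occurred in either window. These counts describe letters in a window and no binding was measured.

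Expression is given as the authors' normalized score, a whole number with 1 as its lowest value. Scores of a library summed to 32988124 at the median, between 23465985 and 53441769. Reads cannot be recovered from them, so the depth of a library, and with it the counting error of a low score, is unknown. Each sort carried the markers of its labelled cell type, with endothelial marker sums of 375964 to 630234 in ECs and macrophage marker sums of 229411 to 413843 in MΦs. β cell libraries ranged from 502570 to 10896496 in their β cell marker sum, and some also carried pericyte, stromal and endothelial transcripts, which are given below beside the genes they moved with. In sorted populations, a smaller share of cells that express a gene and less of its RNA per cell cannot be told apart.

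The receptors and the phosphatase separated ECs from both other cell types. Ptprb scored 181464, 188246, 179130 and 195726 in the 4 No Dox EC libraries, Tek 34294, 31426, 34588 and 33816, and Tie1 16904, 17346, 18478 and 15864. These were narrow groups, with means ± SD of 186140 ± 7468, 33531 ± 1439 and 17148 ± 1083 (n = 4). In No Dox β cells, Ptprb scored 504, 462, 1835 and 1077, Tek 283, 298, 561 and 893, and Tie1 38, 18, 159 and 155. No Dox MΦs were lower again for Ptprb at 141, 164, 47 and 41 and for Tek at 84, 32, 149 and 46, and had Tie1 at 42, 76, 5 and 12. No β cell or MΦ library reached any EC library for these 3 genes, a separation that 48.8% of all genes showed in either direction between ECs and β cells and 49.8% between ECs and MΦs. Against β cells, the log2 fold change of ECs was 7.82 (SE 0.51, adjusted p = 4.47e-07) for Ptprb, 6.20 (SE 0.46, adjusted p = 1.13e-06) for Tek and 8.03 (SE 0.83, adjusted p = 1.17e-05) for Tie1. Against MΦs it was 11.13, 8.97 and 9.57, with adjusted p of 1.48e-08, 3.00e-08 and 2.11e-06. All fold changes here are on the log2(score + 1) scale, which understates the change of genes with low scores, and come from limma with Benjamini-Hochberg adjustment over all genes tested.

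The ligands did not share this pattern. Angpt2 scored 1889, 2251, 1993 and 1883 in No Dox ECs, 338, 273, 368 and 496 in β cells, and 421, 284, 214 and 374 in MΦs. ECs were above both without overlap, by 2.47 (SE 0.24, adjusted p = 8.58e-06) over β cells and 2.67 (SE 0.24, adjusted p = 3.25e-06) over MΦs on the log2 scale, whereas β cells and MΦs overlapped and differed by 0.20 (95% interval -0.33 to 0.74, adjusted p = 0.502). The gap of ECs was therefore between 5.54-fold and 6.37-fold for Angpt2 and 73.7-fold or more for each of the other 3 genes. Angpt1 scored only 40, 77, 18 and 52 in No Dox ECs. It scored 104, 469, 36 and 52 in MΦs and was divided among β cell libraries, with 22 and 4 in the first pair of replicates against 981 and 1517 in the last pair. The cell types overlapped for Angpt1, and no contrast at No Dox was called (adjusted p = 0.493, 0.588 and 0.924). Calls arose in opposite directions when either pair of β cell libraries was left out. Without replicates 1 and 2, ECs stood at -4.85 from β cells (adjusted p = 0.00139) and β cells at 3.62 from MΦs (adjusted p = 0.00685), whereas without replicates 3 and 4 β cells stood at -3.21 from MΦs (adjusted p = 0.0205). Calling a gene took a fold of at least 2 together with an adjusted p under 0.05. By this rule 4 of the 5 genes were called higher in ECs than in β cells, where 37.7% of the 16380 genes tested were called and 16.5% were called higher in ECs, and the same number were called higher in ECs than in MΦs, where 33.5% were called and 15.9% were higher. Between β cells and MΦs 2 of 5 were called, Tek at 2.77 (adjusted p = 3.38e-04) and Ptprb at 3.31 (adjusted p = 1.93e-04), both higher in β cells without overlap. Of all genes 43.2% were called there, 23.5% as higher in β cells, and 43.9% did not overlap. Tie1 differed by 1.54 between these cell types (SE 0.83, adjusted p = 0.136), and was called at 2.14 without β cell replicate 2 (adjusted p = 0.0420) and at 2.13 without MΦ replicate 2 (adjusted p = 0.0444).

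**Figure D1:**
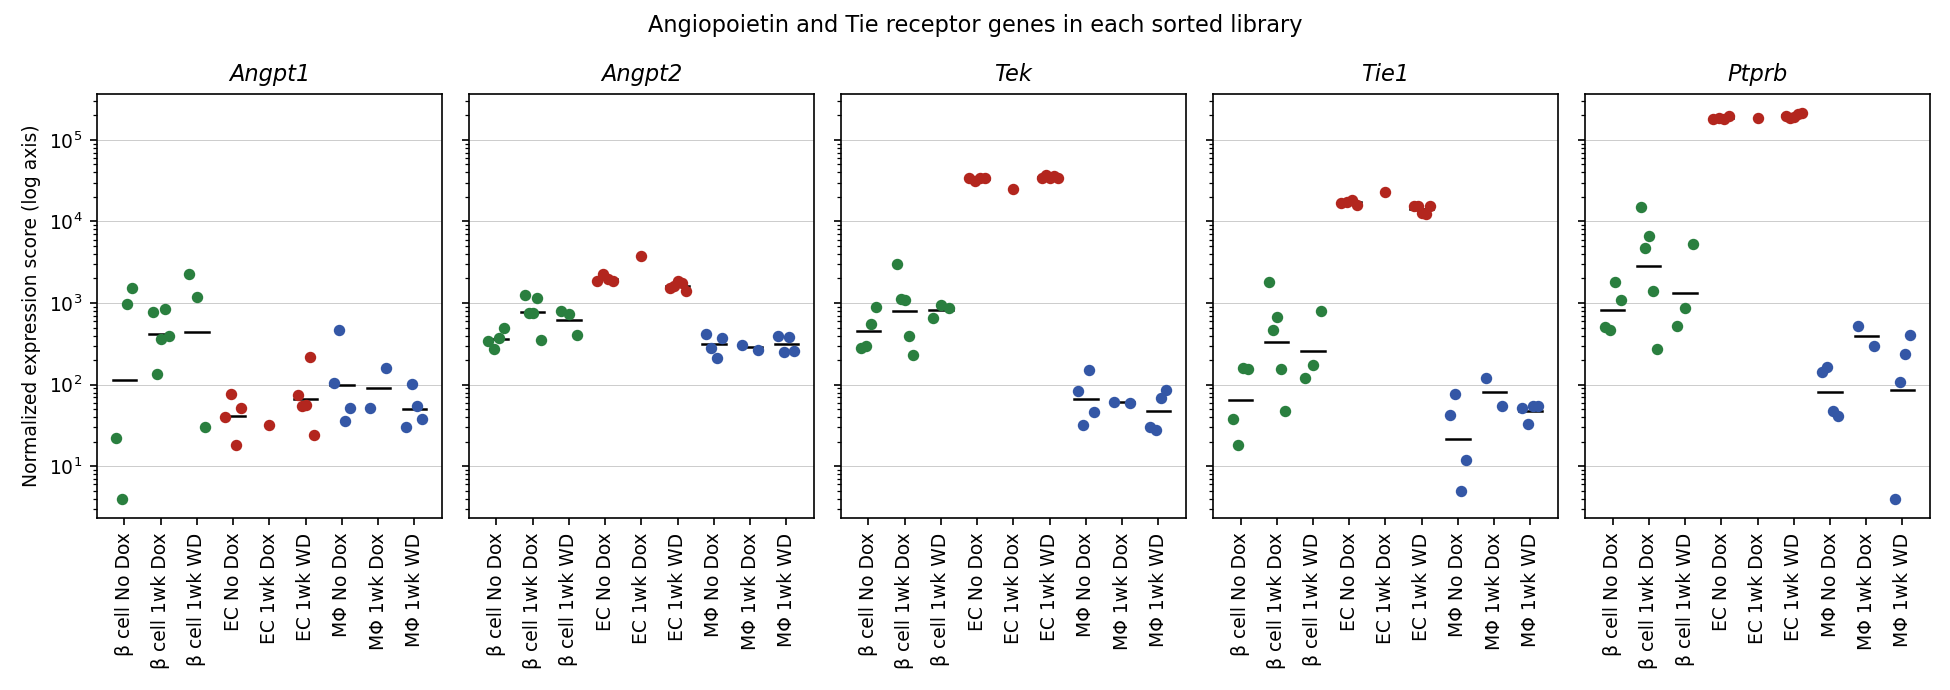
Normalized expression score (log axis) of Angpt1, Angpt2, Tek, Tie1 and Ptprb in each of the 32 libraries, by cell type and time point; points are libraries and black lines the mean on the log2(score + 1) scale of groups with more than 1 library. Tek, Tie1 and Ptprb in every EC library lie above every β cell and MΦ library, Angpt2 does so with a smaller gap, and Angpt1 is spread from 4 to 1517 in No Dox β cells.

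After withdrawal the order of the cell types was the same for the receptors. Ptprb scored 198759, 187896, 192807, 209128 and 215124 in 1wk WD ECs, 518, 877 and 5345 in β cells, and 4, 108, 240 and 410 in MΦs. Tek scored 34608, 36713, 34250, 36317 and 34351 in ECs against 649, 958 and 872 in β cells and 30, 28, 68 and 87 in MΦs. Tie1 stood at 15665, 15477, 12643, 12189 and 15624 in ECs, at 121, 175 and 798 in β cells, and at 51, 33, 55 and 55 in MΦs. For each of these genes the 3 cell types did not overlap, as was seen for 45.7% of all genes between ECs and β cells, 53.8% between ECs and MΦs and 55.9% between β cells and MΦs. ECs exceeded β cells by 7.22, 5.43 and 5.79 on the log2 scale for Ptprb, Tek and Tie1 (adjusted p = 1.29e-04, 3.42e-08 and 3.46e-07), and MΦs by 11.19, 9.51 and 8.20 (adjusted p = 6.82e-07, 2.90e-11 and 2.22e-09). With Angpt2, at 1.41 (SE 0.25, adjusted p = 4.02e-04) and 2.38 (SE 0.23, adjusted p = 1.17e-06), 4 of 5 genes were called higher in ECs in each contrast, where 39.9% and 40.3% of the 16435 genes tested were called and 14.8% and 19.6% were higher. Angpt1 in ECs was 0.39 from MΦs (adjusted p = 0.786) and -2.72 from β cells (SE 1.13, adjusted p = 0.0599). The latter value was -2.63 with a pseudocount of 10 (adjusted p = 0.0462), -4.63 without β cell replicate 3 (adjusted p = 1.16e-04) and -3.14 without EC replicate 4 (adjusted p = 0.0414).

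β cells at 1wk WD were above MΦs for 4 called genes of 5, where 46.2% of all genes were called and 27.0% were higher in β cells. Tek was 4.08 higher on the log2 scale (SE 0.33, adjusted p = 4.02e-07), Tie1 2.41 (SE 0.48, adjusted p = 7.44e-04), Ptprb 3.97 (SE 1.18, adjusted p = 0.0108) and Angpt1 3.10 (SE 1.19, adjusted p = 0.0382). Angpt2 was 0.97 higher without overlap (SE 0.26, adjusted p = 0.00657), just short of a fold of 2. The call of Angpt1 rested on the pair of β cell libraries at 2282 and 1191, since the third, at 30, lay within the MΦ range of 30 to 101. Without replicate 1 or 2 of the β cells its fold change was 1.91 and 2.38 (adjusted p = 0.189 and 0.152), and without MΦ replicate 1, 3 or 4 it was 2.86, 3.14 and 2.97 (adjusted p = 0.0835, 0.0629 and 0.0759). The call of Angpt1 was also lost without a filter (adjusted p = 0.0928), without a trend (adjusted p = 0.0537), with only these groups fitted (adjusted p = 0.0860) and with quantile normalization (adjusted p = 0.0906). Quantile normalization ended the call of Tie1 as well, at 1.31 (adjusted p = 0.0863), and fitting only these groups that of Ptprb, at 3.97 (adjusted p = 0.0540). Without β cell replicate 3, Ptprb stood at 2.98 (adjusted p = 0.0503) and Angpt2 was called at 1.28 (adjusted p = 3.33e-04). Angpt2 also passed without MΦ replicate 1 at 1.08 (adjusted p = 0.00570), without MΦ replicate 3 at 1.07 (adjusted p = 0.00736) and with scaling by score sums at 1.06 (adjusted p = 0.0131).

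**Figure D2:**
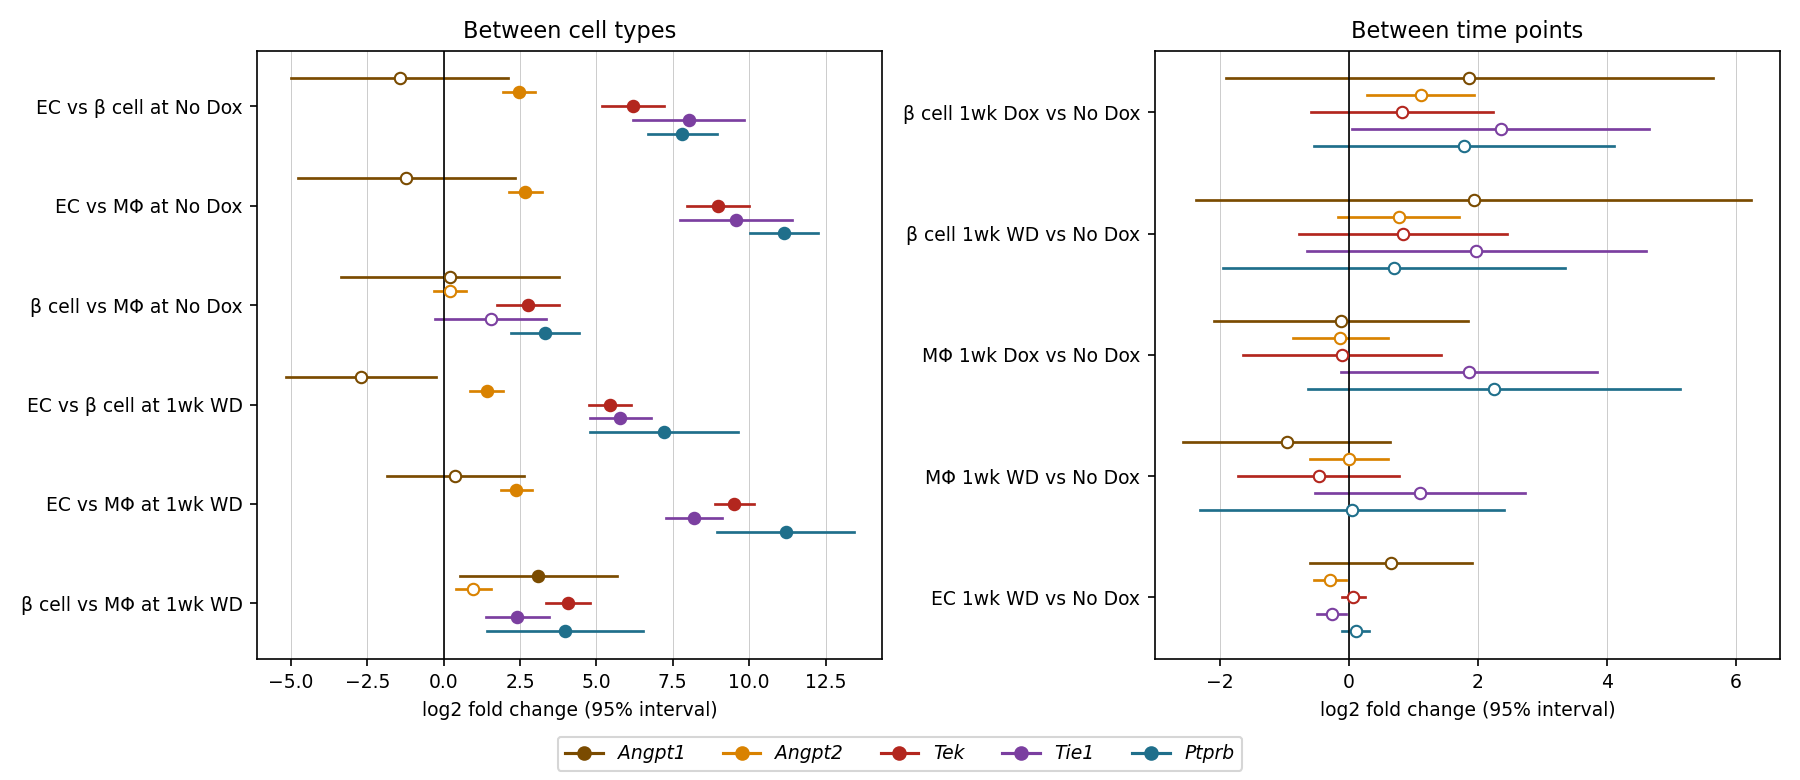
log2 fold change of each gene in the 6 contrasts of cell types (left) and in 5 contrasts of time points (right), with 95% intervals from limma; filled points were called at a fold of 2 or more and an adjusted p under 0.05. The receptors stand at 5.43 or more in every contrast with ECs, and no gene was called in a contrast of time points.

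Levels of different genes were compared as the score per kilobase of annotated exon. In No Dox ECs, Ptprb had the highest level at 14102 ± 566 per kb (SD, n = 4), then Tek at 7116 ± 305, Tie1 at 3488 ± 220, Angpt2 at 543 ± 46.7 and Angpt1 at 10.98 ± 5.78. Neighbours in this order did not overlap between libraries, and the order was the same at 1wk WD, at 15208, 7480, 2912, 447 and 20.1 per kb. In β cells at No Dox the order could not be fixed, since Angpt1 ranged from 0.940 to 356 per kb, Tek from 60.1 to 190, Angpt2 from 74.0 to 134, Ptprb from 35.0 to 139 and Tie1 from 3.66 to 32.3. In MΦs at No Dox, Angpt2 was highest by its mean, at 87.6 ± 25.0 per kb, with Angpt1 reaching 110 in replicate 2.

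In ECs, 1wk WD against No Dox asks how the axis stood 1 week after the VEGF-A stimulus had ended. None of the 5 genes was called between 1wk WD and No Dox by limma, where 1.76% of the 14167 genes tested were called, and 2 of them, Angpt2 and Tie1, had an unadjusted p under 0.05, as had 21.9% of all genes. Tie1, at 12189 to 15665, lay below the No Dox range of 15864 to 18478 without overlap, a separation seen in one direction or the other for 10.7% of all genes, and its log2 fold change was -0.27 (95% interval -0.50 to -0.04, adjusted p = 0.171). Angpt2 scored 1551, 1632, 1883, 1780 and 1399, touching the lowest No Dox library at 1883, with a fold change of -0.29 (interval -0.54 to -0.04, adjusted p = 0.177). Tek changed by 0.07 (interval -0.11 to 0.25, adjusted p = 0.632) and Ptprb by 0.11 (interval -0.10 to 0.32, adjusted p = 0.538), with overlapping groups, so that both intervals lay within a fold of 2 in either direction. Angpt1 scored 75, 54, 57, 218 and 24 at 1wk WD. Its fold change was 0.66 (interval -0.60 to 1.92, adjusted p = 0.529), and the library at 218 also had the highest pericyte and stromal marker sum of any EC library, 78192, against 6294 to 14486 at No Dox and 18992 to 54402 in the other 1wk WD libraries. The library at 54402 had Angpt1 at 75, within the No Dox range of 18 to 77. The part of these transcripts in Angpt1 was not tested.

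The marker sums of the 1wk WD ECs also differed from No Dox. Their endothelial sum was 375964 to 439208 against 517845 to 553115, without overlap and with a median of 79.2% of the No Dox mean, beside medians of 90.3% for Tie1 and 81.4% for Angpt2. Of its 10 markers, Egfl7, Flt1 and Kdr were lower and Cldn5 and Vwf higher in every 1wk WD library than in any No Dox library, and 5 overlapped. The sum weighs high scores most, among them Kdr at 39326 to 61402 against 92107 to 105159 and Flt1 at 72250 to 99647 against 127207 to 138669. The mean log2(score + 1) of the 10 markers, which weighs them equally, was 13.98 to 14.12 against 13.91 to 14.20 and overlapped. All 5 1wk WD libraries also exceeded every No Dox library in the pericyte and stromal sum. Of its 13 markers 6 were above every No Dox library and 7 overlapped, and Rgs5 made 63203 of the sum of 78192 in replicate 4. The acinar sum was lower without overlap, at 656 to 50997 against 53436 to 1405685 at No Dox, where replicate 2 carried more acinar than endothelial score. Of its 7 markers only Ctrb1 was below every No Dox library in all 5, and 6 overlapped. The lymphatic endothelial sum was also lower without overlap, at 11598 to 11987 against 13968 to 16765. Of its 5 markers Flt4 was below and Prox1 above every No Dox library, and 3 overlapped. The part of these differences in Tie1 and Angpt2 was not tested.

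The 1wk Dox ECs were represented by a single library, so no test was made and no difference has a replicate check. Angpt2 scored 3761, above all 9 other EC libraries and 1.88-fold the No Dox mean (log2 difference 0.91). Tek scored 25119, below all other EC libraries and at 0.749 of the mean, and Tie1 scored 22739, above all others at 1.33 times the mean. Ptprb at 187098 and Angpt1 at 32 fell within their No Dox ranges. None of the 5 passed a fold of 2, which 10.7% of the 14047 genes compared did, 5.43% upward and 5.27% downward, and 62.1% of genes were above or below all No Dox libraries. A rise as large as that of Angpt2 or larger was seen in 6.63% of genes. The endothelial marker sum of the library was 630234, 118% of the No Dox mean. Its acinar sum was 198, against 53436 to 1405685 at No Dox, and its pericyte and stromal sum 16132, against 6294 to 14486. The lymphatic endothelial sum was 21091, of which Flt4 made 20208, against 13968 to 16765. Its β cell and macrophage sums, 423 and 4945, were below all No Dox libraries. The part of these differences in the 5 genes was not tested.

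**Figure D3:**
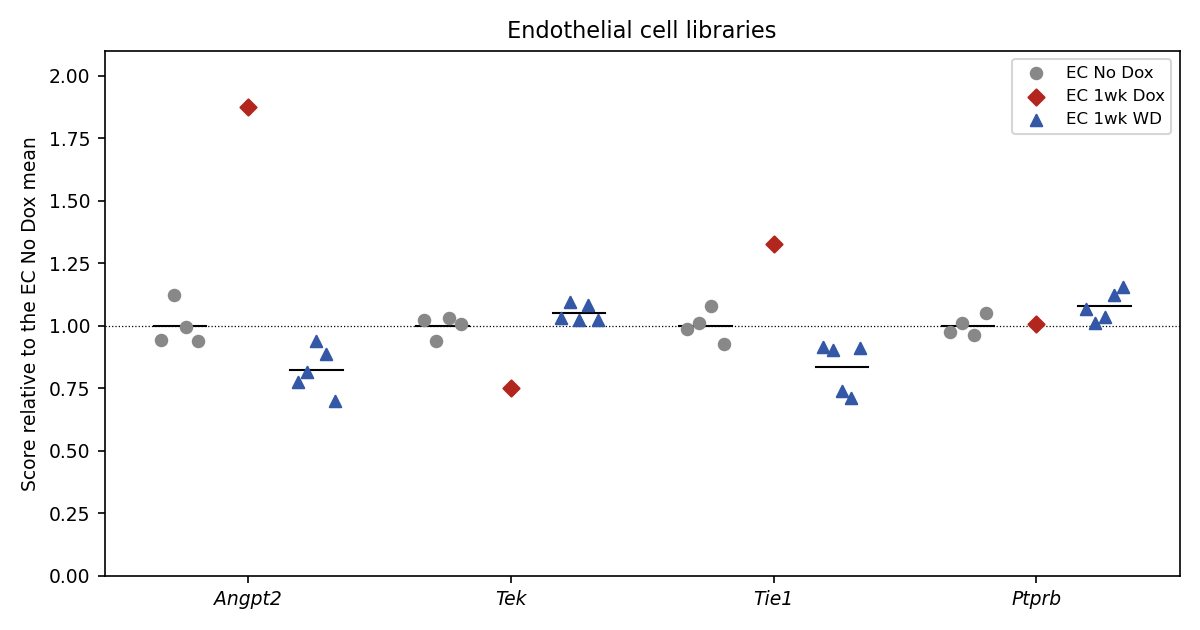
Score of Angpt2, Tek, Tie1 and Ptprb in each EC library divided by the mean of the 4 No Dox EC libraries; points are libraries and lines group means (none for the single 1wk Dox library). The 1wk Dox library stands at 1.88 for Angpt2, 0.749 for Tek, 1.33 for Tie1 and 1.01 for Ptprb, while 1wk WD libraries lie between 0.698 and 0.940 for Angpt2 and between 0.711 and 0.914 for Tie1.

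Ratios within a library hardly depend on the scaling of that library, and are given as log2 ratios of score + 1 without a test. Tie1 over Tek was -1.09 to -0.86 in No Dox ECs, -0.14 in the 1wk Dox library and -1.58 to -1.14 at 1wk WD. The No Dox and 1wk WD ranges thus lay next to each other without overlap, and the lone 1wk Dox library was nearest to equal scores. How often other pairs of genes separate in this way was not counted. Ptprb over Tek was 2.37 to 2.58, 2.90 and 2.36 to 2.65, and only the 1wk Dox library stood outside the others. Angpt2 over Angpt1 was 4.85 to 6.71 in No Dox ECs, 6.83 in the 1wk Dox library and 3.02 to 5.81 after withdrawal. In β cells it ran from -1.61 to 5.78 across the No Dox libraries, and in MΦs from -0.72 to 2.82.

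In 1wk Dox β cell libraries the receptors were high where endothelial transcripts were. There, Ptprb scored 15072, 4706, 6663, 1425 and 274 in replicates 1 to 5, Tek 2991, 1127, 1079, 400 and 230, and Tie1 1799, 463, 665, 156 and 47. The sum over all 10 endothelial markers, all present in the table, was 54680, 18440, 26409, 6398 and 1418 in these libraries, against 1395 to 7148 at No Dox and 4157 to 16518 after withdrawal. Expressed as a share of the No Dox EC mean, replicate 1 carried 10.3% of the endothelial sum, 8.92% of Tek, 10.5% of Tie1 and 8.10% of Ptprb, and replicate 5 carried 0.267%, 0.686%, 0.274% and 0.147%. Within the list Cldn5 lay between 1 and 64 in the 12 libraries, where No Dox ECs themselves had only 47 to 90. Its 64 was in 1wk Dox replicate 1, in which Cdh5, which encodes VE-cadherin, scored 4829. Replicate 1 ranked highest of the 12 β cell libraries for the endothelial sum and for all 3 genes. Tek departed from the endothelial share elsewhere, at 0.844%, 0.889%, 1.67% and 2.66% in the No Dox libraries beside 0.380%, 0.262%, 0.779% and 1.34% of the endothelial sum. At 1wk WD it was at 1.94%, 2.86% and 2.60% beside 0.781%, 1.11% and 3.10%, so that its highest share did not come with the highest endothelial sum. The part of EC transcripts in these β cell values was not tested.

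Angpt2 in β cell libraries stood at a larger share of the EC level than the receptors did. Its scores were 1241, 761, 758, 1152 and 350 at 1wk Dox, 17.5% to 61.9% of the No Dox EC mean. At 1wk WD they were 797, 730 and 402, or 20.1% to 39.8%, with 13.6% to 24.8% in the No Dox β cells, while the endothelial sum of the 12 libraries was between 0.262% and 10.3% of that in ECs. In MΦs Angpt2 was at 10.7% to 21.0% with an endothelial sum of 0.480% to 0.868%. Among 1wk Dox β cells, replicate 4 had Angpt2 at 57.5% and Ptprb at 0.766%, close in Angpt2 to replicate 1, which had Ptprb at 8.10%. These libraries were also alike in their pericyte and stromal marker sums, 460545 and 506533. With 1wk WD replicate 1, at 351435, they were 3 of the 4 β cell libraries with the largest such sums and the 3 with the highest Angpt2, whereas the largest sum, 570063 in No Dox replicate 4, came with an Angpt2 score of 496. The part of stromal transcripts in Angpt2 was not tested.

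Angpt1 in β cell libraries moved with pericyte and stromal transcripts. The summed score of the 13 listed markers, among them Rgs5 and Pdgfrb of pericytes and Col1a1 and Dcn of fibroblasts, was 1532 and 1717 in No Dox replicates 1 and 2, where Angpt1 was 22 and 4, and 158677 and 570063 in replicates 3 and 4, where Angpt1 was 981 and 1517. At 1wk Dox the sums were 506533, 146246, 283648, 460545 and 104769 beside Angpt1 of 770, 134, 358, 849 and 397. At 1wk WD they were 351435, 328710 and 26489 beside 2282, 1191 and 30. The 3 libraries with Angpt1 under 100 were thus the 3 with the smallest stromal sums. Acinar transcripts were also highest in No Dox replicates 3 and 4, with summed scores of 10382936 and 8024890 against 607993 and 27116 in replicates 1 and 2, so the No Dox β cells fell into 2 unlike pairs. All 5 1wk Dox libraries, at 245 to 18755, were below every No Dox library in the acinar sum, and 1wk WD libraries had 321 to 485992. The part of stromal or acinar transcripts in Angpt1, and of acinar transcripts in the contrasts of time points, was not tested.

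**Figure D4:**
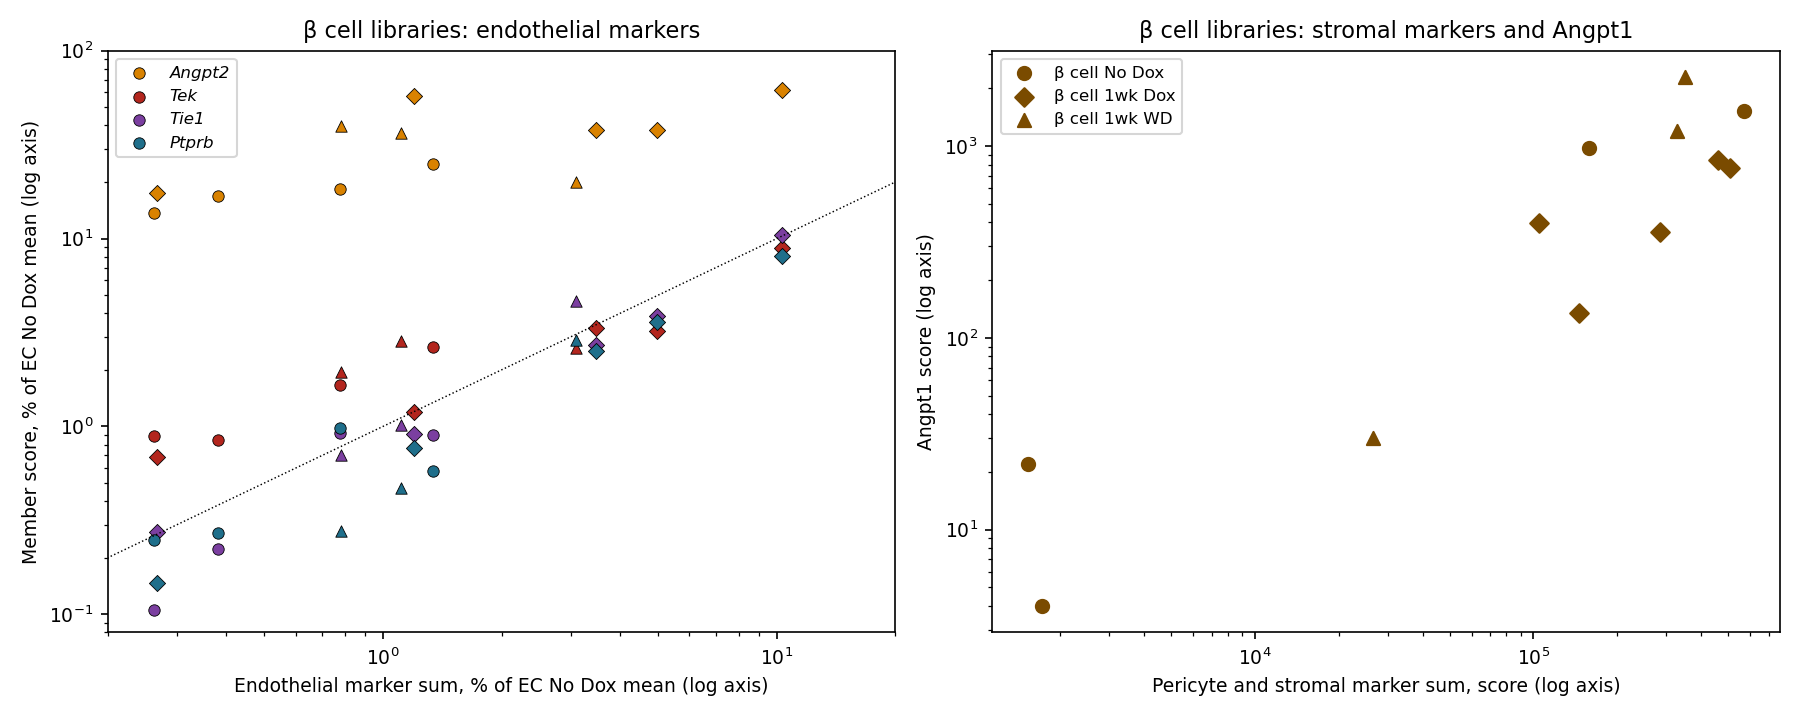
β cell libraries, with circles for No Dox, diamonds for 1wk Dox and triangles for 1wk WD. Left, share of the No Dox EC mean for Angpt2, Tek, Tie1 and Ptprb against the same share of the summed endothelial markers (both in percent, log axes), where the dotted line marks equal shares; right, Angpt1 score against the summed score of the pericyte and stromal markers (log axes). Tie1 and Ptprb lie on both sides of the line between 0.105% and 10.5%, Angpt2 lies above it throughout, and the 3 lowest Angpt1 scores, 4, 22 and 30, belong to the 3 lowest stromal sums.

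Against this spread no gene was called between time points in β cells. For 1wk Dox against No Dox the log2 fold changes were 1.87 (SE 1.73) for Angpt1, 1.11 (SE 0.38) for Angpt2, 0.82 (SE 0.65) for Tek, 2.35 (SE 1.05) for Tie1 and 1.78 (SE 1.07) for Ptprb, with adjusted p from 0.584 to 0.853. The groups overlapped for all 5 genes, where 2.55% of all genes did not overlap, and 2 of them, Angpt2 and Tie1, had an unadjusted p under 0.05 in limma, as had 6.99% of all genes. Of the 16346 genes tested 0.0122% were called. For 1wk WD against No Dox the values were 1.94, 0.77, 0.85, 1.98 and 0.71 in the same order, with adjusted p from 0.622 to 0.870. None of the 5 had an unadjusted p under 0.05, as 8.17% of all genes had, and 0.00% of all genes were called, or 8.74% without No Dox replicates 3 and 4. Without No Dox replicates 3 and 4 Angpt1 was called at 5.28 for 1wk Dox (adjusted p = 0.0474), in a fit that called 7.36% of all genes, and without replicates 1 and 2 its value was -1.55, so that its direction rested on which pair was taken as the control. Between 1wk WD and 1wk Dox the values lay between -1.08 for Ptprb and 0.07 for Angpt1, with 0 of 5 genes and 6.31% of all genes under an unadjusted p of 0.05 and 0.00% of all genes called.

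MΦs had low scores of all receptors at each time point. At 1wk Dox the 2 libraries had Ptprb at 525 and 295, above all No Dox libraries, and Tie1 at 121 and 54, overlapping with No Dox at 5 to 76. The log2 fold changes were 2.25 for Ptprb (SE 1.33, adjusted p = 0.366) and 1.86 for Tie1 (SE 0.92, adjusted p = 0.268). With 2 libraries against 4, the groups did not overlap in either direction for 30.9% of all genes, and 2.26% were called. The endothelial marker sum of these 2 libraries was 4618 and 3832, above the No Dox range of 2599 to 3567, and of the 10 markers 4 were above all No Dox libraries in both (Cdh5, Emcn, Pecam1 and Plvap), 1 was below them in both (Vwf, which encodes von Willebrand factor) and 5 overlapped. All 7 acinar markers were below every No Dox library in both, with sums of 762 and 2755 against 20822 to 9649545, and of the 13 pericyte and stromal markers Cspg4 and Rgs5 were above. Platelet and megakaryocyte sums were 7767 and 4800 against 2579 to 3231, with Pf4 and Ppbp above No Dox in both, and of 8 macrophage markers 4 were above and Itgam was below. The part of any of these transcripts in Ptprb and Tie1 was not tested. Angpt1, Angpt2 and Tek differed by -0.12, -0.13 and -0.11, values that were 0.10, 0.085 and 0.11 when libraries were scaled by their score sums. At 1wk WD against No Dox the 5 values ran from -0.96 for Angpt1 to 1.11 for Tie1, with Angpt2 at 0.00 (95% interval -0.60 to 0.60), and 0.626% of all genes were called. Against 1wk Dox, Ptprb was at -2.20 (SE 1.33, adjusted p = 0.662), where 0.0866% of genes were called. In each of the 3 MΦ contrasts limma called 0 of 5 genes, and 0 had an unadjusted p under 0.05, where 21.3%, 17.3% and 9.70% of all genes had one for 1wk Dox, for 1wk WD and between them. The highest Angpt1 score of any MΦ library, 469 in No Dox replicate 2, came with the largest acinar, β cell and other endocrine marker sums among MΦs, 9649545, 46016 and 30463, and with a pericyte and stromal sum of 4501, within the range of 3553 to 5581 of its group. Their part in that score was not tested.

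Whether the responses differed between cell types was tested directly, and none of the 5 genes passed. The 1wk WD response of ECs minus that of β cells was -1.06 for Angpt2 (SE 0.31, adjusted p = 0.194) and -2.24 for Tie1 (SE 0.90, adjusted p = 0.318), both with an unadjusted p under 0.05, as had 13.1% of genes, and 0.0913% of genes were called. Without β cell 1wk WD replicate 3, Angpt2 was called at -1.37 (adjusted p = 0.0332). Without No Dox β cell replicates 3 and 4, Angpt2, Tek and Tie1 were called at -1.30, -1.41 and -3.51 (adjusted p = 0.0113, 2.05e-04 and 0.00268), in a fit that called 19.0% of all genes. Against MΦs the largest differences of the EC response were 1.62 for Angpt1 (SE 1.02, adjusted p = 0.368) and -1.37 for Tie1 (SE 0.71, adjusted p = 0.269), with 0 of the 5 and 21.2% of all genes under an unadjusted p of 0.05 and 2.13% of all genes called. The 1wk Dox response of β cells minus that of MΦs was 1.25 for Angpt2 (SE 0.58, adjusted p = 0.916), the only gene of the 5 under an unadjusted p of 0.05. Of all genes 5.43% were under it and 0.00% were called. Without No Dox β cell replicates 3 and 4, Angpt1 was called at 5.40 (adjusted p = 0.0424), as were 6.32% of all genes.

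Genes around Tie2 were taken as lists by role. Of 16 endothelial and hypoxia transcription factors, 15 were called higher in ECs than in β cells at No Dox, beside 16.5% of all genes (median log2 fold change 5.03, against -0.07 over all genes). Gata2 and Tal1, which act in blood and endothelial development, led with 8.42 and 7.65, together with Sox18 at 7.85 and Sox17 at 7.48. The same number were higher at 1wk WD (median 3.38), beside 14.8% of all genes. Against MΦs 9 were higher at No Dox, led by Sox18 at 10.88, beside 15.9% of all genes. At 1wk WD 9 were higher and 1 lower, led by Sox17 at 10.11, where 19.6% of all genes were higher and 40.3% were called. Of 10 co-receptors, substrates and sheddases, 8 were higher in ECs than in β cells at No Dox, among them Kdr, the receptor VEGFR2, at 8.68 and Cdh5 at 8.52, beside the same 16.5% of all genes. At 1wk WD 6 were higher and 1 lower, where 14.8% of all genes were higher and 39.9% were called in either direction.

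The Tie2 adaptors and the PI3K, Akt and FOXO arm, used by many receptors in all cells, had calls in both directions. Of 18 genes, 5 were higher and 4 lower in ECs than in β cells at No Dox, near the share over all genes, of which 37.7% were called and 16.5% were higher. Nos3, the endothelial nitric oxide synthase that Akt phosphorylates, was 7.47 higher and Foxo1 1.13 higher (adjusted p = 5.58e-05), whereas the adaptors Grb14, Grb7 and Dok2 were lower at -5.42, -4.64 and -3.01. Against MΦs 3 were higher and 5 lower, beside 33.5% of all genes called and 15.9% higher, with Nos3 at 7.93, Foxo1 at 2.00 (adjusted p = 4.59e-07), the adaptor Nck1 at 2.12 and Dok2 at -5.31. Of 8 FOXO-regulated genes, 2 were higher and 4 lower in ECs than in β cells, led by Irs2, the insulin receptor substrate, at -6.81 and the repressor Bcl6 at -3.33. Of 8 other angiopoietin-like ligands, 0 were higher and 3 lower in ECs than in β cells, a share like the 37.7% of all genes called. Svep1, an extracellular matrix protein, was at -6.59 there (adjusted p = 9.85e-04), and Angptl2 was at -2.65 (adjusted p = 0.0426).

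Between time points few genes of these lists were called by the same rule. In ECs at 1wk WD 1 listed gene was called, Irs2, which rose by 1.53 on the log2 scale (adjusted p = 0.0223), so that 1 of 8 FOXO-regulated genes and 0 genes of the other 4 lists passed, beside 1.76% of all genes. The median of the FOXO-regulated list was 0.19, and that of all genes 0.00. Kdr was -0.98 (SE 0.13, adjusted p = 0.00348), just inside a fold of 2, with scores of 61402, 58413, 39326, 51315 and 44022 against 92107 to 105159 at No Dox and no overlap, and Foxo1 was 0.08 (SE 0.09, adjusted p = 0.625). In MΦs at 1wk Dox 1 listed gene was called, the endothelial transcription factor Erg, higher by 2.41 (adjusted p = 0.0281), 1 of 58 listed genes tested (1.72%) beside 2.26% of all genes and beside the higher endothelial marker sums given above. In β cells 0 listed genes were called in any of the 3 contrasts of time points by limma, where 0.0122%, 0.00% and 0.00% of all genes were called. So few calls do not state how far these lists moved. At 1wk Dox against No Dox the median was 1.48 for the co-receptors, substrates and sheddases and 0.98 for the transcription factors. The remaining lists lay between -0.22 and 0.40, and all genes at 0.03. The EC and MΦ responses at 1wk WD differed for 2 listed genes, Gata2 at -2.57 (adjusted p = 0.0413) and Ets2 at -0.81 (adjusted p = 0.0327). These were 3.33% of the 60 listed genes, near the 2.13% of all genes. In the single 1wk Dox EC library 6 of 57 listed genes were past a fold of 2, or 10.5%, the share being 10.7% over all genes. They were Svep1 at 1.16, Angptl4, an inhibitor of lipoprotein lipase, at 1.15, the protease Mmp14 at 1.18 and the integrin Itga5 at 1.11 among those above No Dox, and the FOXO-regulated Sesn1 and Pik3ip1 at -1.04 and -1.12. Kdr scored 77811 in that library, below all 4 No Dox libraries.

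The genes most like each member were found by Pearson's r of log2(score + 1) over the 32 libraries among 16968 genes. The libraries share their cell type in groups of 10 to 12, so that a high r mostly states which cell types a gene separates. Ptprb was most like Emcn (r = 0.991), an endothelial mucin, and Tek most like Jam2 (r = 0.986), a junction adhesion molecule. Tie1 was nearest to Fgd5 (r = 0.984), with Kdr also among the nearest 5 (r = 0.976). For Angpt2 the nearest were Endod1 (r = 0.958) and Fzd4 (r = 0.955), a Wnt and norrin receptor. Angpt1 was most like Cryab (r = 0.913), a small heat shock protein, and Spon1 (r = 0.898), a matrix protein, and r between Angpt1 and the other 4 members lay between -0.13 and -0.02. Within the 10 EC libraries, Angpt2 had r of 0.955 with Vdr, the vitamin D receptor, 0.954 with Nid2, a basement membrane protein, and 0.942 with Racgap1, a cytokinesis protein. The single 1wk Dox library holds the highest Angpt2 score of the 10 and weighs on these values.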

How the data were processed

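RNA from sorted islet cells was amplified (NuGEN Ovation), sequenced as paired-end reads, mapped to mm9 with TopHat (2.0 in the submitters' processing notes) and normalized by TMM in Avadis NGS by the authors. The annotation version and the rounding step are not given in the sources used here. The values the authors deposited are scores, whole numbers of at least 1 per gene. Depth is unknown, so counting intervals cannot be given. Minimum RNA integrity and fragment length differ between labels and methods. Of 38 value columns, the 32 of these samples were used, and 6 belong to another series. The sample labelled Bets was grouped with β cells by its other fields.

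Linear models of log2(score + 1) used limma 3.58.1 under R 4.3.3 (trend, Benjamini-Hochberg adjustment) on genes whose mean score reached 20 in 1 or more fitted groups. Calls needed a fold of 2 and an adjusted p under 0.05, and differences of responses the latter alone. The methods' z-score test is not described closely enough to repeat. Time points were fitted within a cell type and cell types within a time point, in 16 comparisons. The single 1wk Dox EC library had no test. The fit was tested on simulated data.

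The 5 genes and all lists were chosen with earlier results of these data known. Named genes were the members, at most 4 called genes per list and contrast with the largest absolute log2 fold change, Kdr and Foxo1, and the 5 nearest by Pearson's r. Not every such gene is named. Alternatives were a pseudocount of 10, no filter and a filter of 100, no trend, only the 2 groups compared, scaling by score sums, quantile normalization, the 1wk Dox EC library in the fit, a replicate block and each library left out in turn. Leaving out either pair of No Dox β cell libraries was chosen after seeing the data. Positions and exon lengths were those of the table and of GENCODE M1. Python 3.11.15, pandas 2.3.3, numpy 2.4.6 and matplotlib 3.10.9 were used. Promoters of Angpt1, Angpt2 and Ptprb and protein sequences were not used here.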

Additional observations from a re-analysis of the deposited data

Results flagged for a closer look

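A library stood apart from the rest of its group in 2 of 30 groups of a gene, where chance gives about 1 in 20. In 1wk WD ECs this was Angpt1 in replicate 4, at 218 against 24 to 75 in the others, the library with the highest stromal marker sum of its group. In No Dox MΦs it was Angpt1 in replicate 2, at 469 against 36 to 104 in the others, the library with the highest acinar, β cell and other endocrine marker sums of its group.

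At 1wk Dox the single EC library and every library of another cell type lay on opposite sides of their No Dox means of log2(score + 1) for 2 genes. Angpt1 in the EC library was lower and in all 5 β cell libraries higher, a log2 difference of -2.23 between the responses, on a No Dox β cell mean that joins scores of 4 and 1517. Against the mean of the No Dox β cell scores themselves, 631, the 1wk Dox scores of 134, 358 and 397 were lower and those of 770 and 849 higher. Angpt2 in the EC library was higher and in both MΦ libraries lower, a log2 difference of 1.04. The MΦ scores, 308 and 264, lay within the No Dox MΦ range of 214 to 421. The Angpt1 score of the EC library, 32, likewise lay within the No Dox EC range of 18 to 77. With 1 EC library neither difference was tested.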

How the results depend on the processing

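Higher Angpt2, Tek, Tie1 and Ptprb in ECs, 4 genes called against β cells and against MΦs, held at both time points under all alternatives run, and 0 genes were called between 1wk WD and No Dox in ECs under each. Correlations of the deviations of same-numbered libraries lay between -0.48 and 0.38. In groups this small, and without a comparison with libraries of other numbers, they cannot decide whether replicate numbers pair the samples. A replicate block left the number of the 5 genes called as it was in all 16 comparisons (0 for every contrast of time points). Of the counts of genes called, 323 alternatives stayed within 1.5 times, 5 gave more and 2 fewer. Of values of single genes, 1582 kept direction and call, 62 changed sign, 18 gained and 12 lost a call, and 4 moved without a test. Scaling by score sums moved the median of all genes by up to 0.59 on the log2 scale, from 0.03 to 0.62 in β cells at 1wk Dox.

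Without No Dox β cell replicates 3 and 4, 1 gene rather than 0 was called for 1wk Dox against No Dox (Angpt1), 3 for the EC minus β cell response and 1 for the β cell minus MΦ response, beside 7.36%, 19.0% and 6.32% of all genes, and without replicates 1 and 2, 4 rather than 2 were called between β cells and MΦs at No Dox. At 1wk WD 2 rather than 4 were called between β cells and MΦs with only these groups fitted and with quantile normalization, and leaving out single libraries gave 0 to 1 for the EC minus β cell response. Calls over all genes for 1wk Dox against No Dox in β cells were 2, or 80 and 1199 without either pair, 26 without No Dox replicate 2, 86 with scaling by score sums and 0 by limma with the block (1294 at an unadjusted p under 0.05). For 1wk WD against No Dox in β cells they were 0 by limma (1336 at an unadjusted p under 0.05), or 14 and 1424 without either pair. In MΦs they were 340, or 3 with the block and 38 to 497 under the other settings that kept every library. With libraries left out they were 0 to 487, with 0 called by limma and 1178 at an unadjusted p under 0.05 without 1wk Dox replicate 4, and 49 without replicate 5, each leaving a lone library that is assumed to vary like the other groups. In ECs they were 250 at 1wk WD, or 27 without a filter, 76 without a trend, and 76, 138 and 75 without No Dox replicates 1, 2 and 3. For 1wk WD against No Dox in MΦs they were 94 (11 to 144 over all settings), and against 1wk Dox 13 (0 to 79, the 0 with 511 to 1331 at an unadjusted p under 0.05). For the EC minus MΦ response they were 332 (109 to 511), and for the EC minus β cell response 15, or 0 with the block (1765 at an unadjusted p under 0.05), 1 to 272 with a library left out, the highest without β cell No Dox replicate 4, and 3109 without replicates 3 and 4. The cause was not tested.

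Signs turned as follows. Without No Dox β cell replicates 1 and 2, Angpt1 was -1.55 for 1wk Dox and -1.48 for 1wk WD, Ptprb -0.064 for 1wk WD, the EC minus β cell response 2.13 for Angpt1 and 0.17 for Ptprb, and the β cell minus MΦ response -1.43 for Angpt1 and -0.78 for Tie1. Without replicates 3 and 4, Angpt1 was 1.98 for ECs over β cells and -3.21 for β cells over MΦs, Angpt2 -0.042 for the latter, and Ptprb 0.30 for the β cell minus MΦ response. Scaling by score sums gave 0.10, 0.085 and 0.11 for Angpt1, Angpt2 and Tek in MΦs at 1wk Dox, -0.12 and -0.18 for Angpt1 and Tek in β cells at 1wk WD against 1wk Dox, and -0.092 for Ptprb in the EC minus MΦ response, which was -0.19 with a pseudocount of 10. Quantile normalization gave -0.13 for Angpt2 in β cells over MΦs at No Dox, -0.042 for Tek in β cells at 1wk WD against 1wk Dox and 1.58 for Ptprb in the EC minus β cell response. The block gave -0.51 for Tek in β cells at 1wk WD against 1wk Dox and -0.65 for Tie1 in the β cell minus MΦ response.

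With libraries left out in turn, Angpt1 ranged from -3.19 to 0.22 in the EC minus β cell response, -1.12 to 1.98 in β cells at 1wk WD against 1wk Dox, -1.04 to 1.71 in β cells over MΦs at No Dox, -0.041 to 0.74 in ECs over MΦs at 1wk WD and -0.93 to 0.69 in MΦs at 1wk Dox. Angpt2 ranged from -0.31 to 0.0094 in 1wk Dox MΦs and -0.18 to 0.15 in 1wk WD MΦs. Tek ranged from -0.43 to 0.49 in β cells at 1wk WD against 1wk Dox and -0.44 to 0.28 in MΦs at 1wk Dox. Tie1 ranged from -0.12 to 1.19 in the β cell minus MΦ response and -1.19 to 0.23 in β cells at 1wk WD against 1wk Dox. Ptprb ranged from -1.07 to 0.38, -1.29 to 0.40 and -1.31 to 0.81 in the β cell minus MΦ, EC minus β cell and EC minus MΦ responses, -0.29 to 1.39 in β cells at 1wk WD and -0.71 to 1.41 in MΦs at 1wk WD. Without the depth of the libraries, scores near 1 have no stated counting error.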
